A study of Oryza sativa with 6 samples.

Results

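The 9 regulators described here act on how rice senses nitrogen and how it puts nitrogen to use. They were chosen by their MSU locus names, as *OsNLP1*, *OsNLP3*, *OsNLP4*, *OsNIGT1*, *OsBT*, *OsDOF18*, *OsTCP19*, *NGR5* and *OsGRF4*, out of 55982 loci with a value in every library. All 9 were found, and 8 of them passed the minimum mean of 1 FPKM that a locus needed to be tested, as did 20627 loci in all. FPKM is the number of fragments assigned to a locus, scaled by transcript length and by how many fragments of that library mapped, so that it can be compared between genes.

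RNA-seq was done on roots of the 2 *OsMYB305*-overexpressing lines, OE15 and OE20, and of the wild type (WT), with 2 libraries for each. All 3 genotypes are of the cultivar ZH11 and had an age of 14 days. They were grown with 0.288 mM NH4NO3, a low supply of nitrogen, without a group at a higher supply. The lines carry the *OsMYB305* coding sequence under the constitutive CaMV 35S promoter, each line is a transformant of its own, and the number of plants in a library is not given in the sources used here. The sample labels name MS as the culture solution, whereas the methods of the study name the solution of Yoshida.

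Plants read nitrate both as a nutrient and as a signal. In rice, perception of nitrate at the plasma membrane lets NIN-like proteins (NLPs) act in the nucleus, where they switch on genes of nitrate uptake and assimilation. The NIGT1 repressors, themselves induced by nitrate, and BT proteins hold this response down, DOF18 acts on ammonium uptake, and TCP19, NGR5 and GRF4 link the nitrogen supply to tillering and growth. Part of the control of NLPs, NGR5 and GRF4 acts on the protein, which RNA-seq does not measure.

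The transgene was present as labelled. *OsMYB305* (LOC_Os01g45090) was at 150.2 and 148.3 FPKM in OE15, 81.3 and 80.2 FPKM in OE20, and 0.0388 and 0.0576 FPKM in the WT. Pearson correlations of log2(FPKM + 0.1) over the tested loci were 0.984 to 0.988 between libraries of a genotype and 0.965 to 0.976 between genotypes, so no library stood apart. The relative depth, read from the steps of the lowest values, was between 0.983 and 1.08 of WT replicate 1 in the OE libraries and 1.36 in WT replicate 2, and the absolute depth is unknown. The root nitrate uptake genes *OsNRT2.1*, *OsNRT2.2* and *OsNAR2.1* were present in every library, with summed levels of 145.3 to 149.3 FPKM in OE15, 144.2 to 146.4 FPKM in OE20 and 100.2 to 106.4 FPKM in the WT. The summed level of 4 loci taken as a check for leaf RNA, none of which the files or the study annotate, was 140.8 to 141.5 FPKM in OE15, 136.9 to 139.8 FPKM in OE20 and 134.8 to 142.7 FPKM in the WT. Of these 4, LOC_Os01g41710 and LOC_Os09g17740 made up nearly all of the sum, at 66.2 to 76.6 FPKM and 60.4 to 69.9 FPKM over the 6 libraries. These 2 loci were thus above the level of all regulators but *OsBT*. The other 2 were at 0.0684 to 0.369 FPKM and 1.70 to 2.78 FPKM, and none was at 0 in any library. Of the 3 that could be tested, LOC_Os09g17740 passed in OE15 (0.15, adjusted p = 0.043 from limma) and none in OE20. Their part in the results was not tested.

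In brief, *OsBT* and *OsNLP1* rose in OE15, 2 of the 8 regulators tested against 20.4% of all loci, and *OsNIGT1* and *OsNLP4* rose in OE20, 2 of 8 against 11.9% of all loci. The *OsBT* rise in OE15 kept its adjusted p under 0.05 with each library left out in turn. That of *OsNLP1* was lost in 3 of these 6 cases, and both rises in OE20 were lost in all 6. Each of these fits left a genotype with a single library, and fewer of all loci passed as well. No regulator fell by the test, although *NGR5* in OE15 fell under 3 of the alternatives tried. A regulator that passed in both lines was not found, and no change exceeded 1.5-fold. Of the 8, *OsBT* alone passed the test between the 2 lines. In whole roots, a change in the number of cells of a type and a change in RNA per cell cannot be told apart.

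The levels of the regulators in these roots were spread over a wide range. *OsBT* stood highest, with 191.6 to 227.3 FPKM over the 6 libraries, above 97.2% or more of the loci tested. Next came *OsDOF18* with 41.8 to 47.1 FPKM, *OsNLP3* with 31.9 to 35.1 FPKM and *OsNLP1* with 17.3 to 20.9 FPKM, and the ranges of these genes did not overlap. *OsNLP4*, *NGR5* and *OsNIGT1* lay close together, at 9.44 to 11.5, 8.61 to 11.1 and 8.71 to 10.9 FPKM. Their ranges overlapped, and the mean of *OsNLP4* was only 1.04 times that of *NGR5*, which in turn was 1.03 times that of *OsNIGT1*. *OsTCP19* followed at 6.94 to 8.14 FPKM, and *OsGRF4* was close to 0. Within each of the 8 genes tested, the highest library was between 1.1 times (*OsNLP3*) and 1.3 times (*NGR5*) the lowest.

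**Figure D1:**
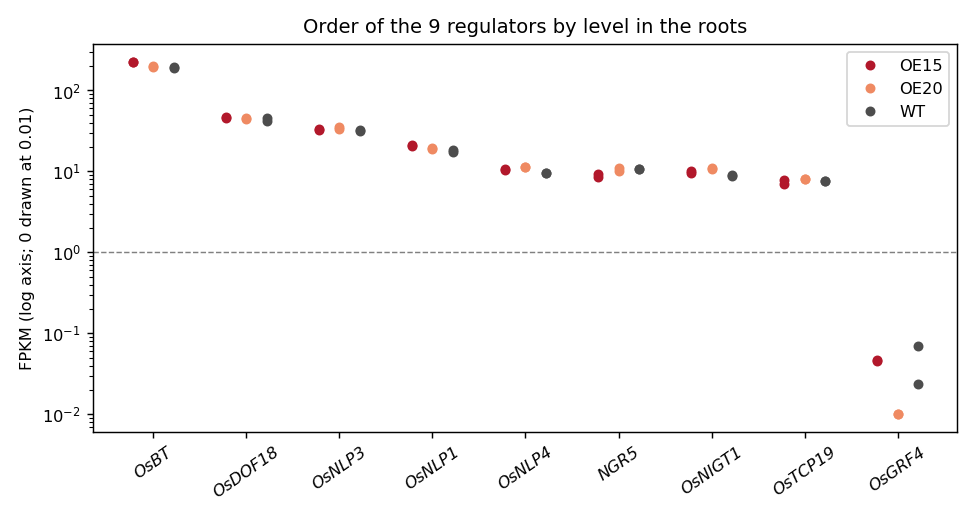
Levels of the 9 regulators in the 6 root libraries, ordered by mean, with FPKM on a log axis; points are libraries of OE15, OE20 and the WT, the dashed line marks the minimum mean of 1 FPKM, and values listed at 0 are drawn at 0.01. *OsBT* was highest at 191.6 to 227.3 FPKM and *OsGRF4* lowest at 0 to 0.0701 FPKM.

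The NLPs are transcription factors with an RWP-RK domain that bind nitrate-responsive elements. *OsNLP1* (LOC_Os03g03900, chromosome 3), an activator of nitrogen use in rice, was at 20.9 and 20.3 FPKM in OE15, 19.4 and 19.0 FPKM in OE20, and 17.3 and 18.3 FPKM in the WT. All OE libraries were above both WT libraries. In OE15 the gene rose by 0.21 in log2 terms (with a standard error of 0.051 and an adjusted p of 0.0281 from limma), which is 15.7%. Its log2 fold change in OE20 was 0.11 (95% interval -0.012 to 0.23, adjusted p = 0.225 from limma), and the difference between the lines did not pass (0.10, adjusted p = 0.251). The rise in OE15 lost its adjusted p under 0.05 in limma without OE15 replicate 1 (0.138), OE15 replicate 2 (0.0924) or WT replicate 1 (0.127), although it stayed positive, at 0.17 to 0.25 over all libraries left out in turn. Without a trend its adjusted p was 0.0623.

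*OsNLP4* (LOC_Os09g37710, chromosome 9), which activates genes of nitrate uptake and assimilation and raises nitrogen use efficiency when overexpressed in rice, was at 10.9 and 10.5 FPKM in OE15, 11.5 and 11.2 FPKM in OE20, and 9.66 and 9.44 FPKM in the WT. Again all OE libraries lay above the WT libraries. The gene rose in OE20 by 0.25 in log2 terms (with a standard error of 0.059 and an adjusted p of 0.0403 from limma), or 18.5%. In OE15 its log2 fold change was 0.16 (adjusted p = 0.105 from limma), and the difference between the lines did not pass (-0.09 for OE15 against OE20, 95% interval -0.23 to 0.053, adjusted p = 0.394). The adjusted p of the rise in OE20 was above 0.05 with any of the 6 libraries left out, from 0.0744 without OE15 replicate 2 to 0.162 without OE20 replicate 1 in limma. It was 0.058 with the replicate number as a block, 0.0537 under quantile normalization, 0.0535 under median-ratio scaling, 0.0501 with no minimum, 0.0768 with separate fits and 0.0585 without a trend.

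*OsNLP3* (LOC_Os01g13540, chromosome 1), which is released into the nucleus when nitrate is perceived, was the highest of the 3 NLP genes. It was at 33.2 and 32.9 FPKM in OE15, 33.1 and 35.1 FPKM in OE20, and 31.9 and 32.7 FPKM in the WT. Each OE library was above both WT libraries, the lowest of them only slightly. Its log2 fold change came to 0.03 in OE15 (95% interval -0.075 to 0.14, adjusted p = 0.669 from limma) and 0.08 in OE20 (95% interval -0.029 to 0.18, adjusted p = 0.323). The 3 NLP genes together had 64.9 and 63.7 FPKM in OE15, 64.0 and 65.3 FPKM in OE20, and 58.9 and 60.5 FPKM in the WT. *OsNLP3* gave 51.1% and 51.6% of this sum in OE15, 51.8% and 53.7% in OE20, and 54.2% and 54.1% in the WT.

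**Figure D2:**
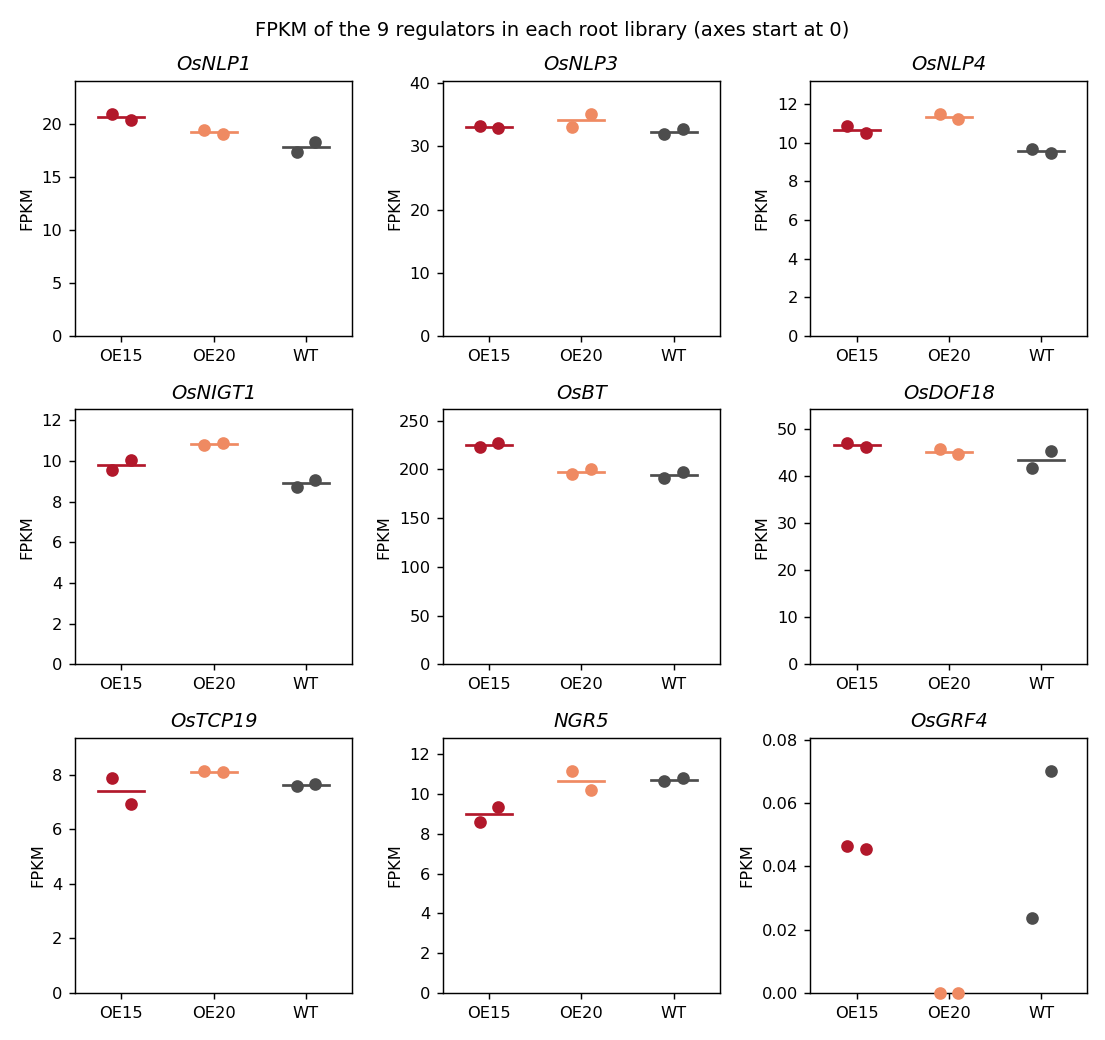
FPKM of each of the 9 regulators by library, with axes that start at 0; points are the 2 libraries of OE15, OE20 and the WT, and bars are group means, not drawn for *OsGRF4*. *OsNLP1*, *OsNLP3*, *OsNLP4* and *OsNIGT1* were above both WT libraries in all 4 OE libraries, *OsBT* was higher in OE15 alone, and *OsGRF4* was listed at 0 in OE20.

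Among the genes that restrain the nitrate response, *OsNIGT1* and *OsBT* rose in different lines. *OsNIGT1* (LOC_Os02g22020, chromosome 2), a nitrate-induced transcriptional repressor that also represses its own gene, was at 9.53 and 10.0 FPKM in OE15, 10.8 and 10.9 FPKM in OE20, and 8.71 and 9.08 FPKM in the WT. No OE library overlapped the WT. In OE20 it rose by 0.28 in log2 terms (with a standard error of 0.063 and an adjusted p of 0.0315 from limma), which is 21.7%. This was the largest log2 fold change of a regulator in either line. In OE15 its log2 fold change was 0.14 (adjusted p = 0.178 from limma), and the difference of OE15 from OE20 was -0.15 (95% interval -0.30 to 0.0024, adjusted p = 0.187). The adjusted p in OE20 was above 0.05 with any of the 6 libraries left out, from 0.0571 without OE15 replicate 1 to 0.132 without OE20 replicate 2 or WT replicate 1 in limma, and the log2 fold change stayed at 0.25 to 0.31. With all libraries kept, the adjusted p was also above 0.05 with no minimum (0.0515), with separate fits (0.0588) and without a trend (0.053).

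*OsBT* (LOC_Os01g68020, chromosome 1) encodes a BTB-TAZ protein that lowers nitrate uptake and nitrogen use efficiency in rice. It was at 222.8 and 227.3 FPKM in OE15, 195.2 and 200.04 FPKM in OE20, and 191.6 and 197.0 FPKM in the WT. OE15 was above all other libraries, whereas OE20 and the WT overlapped. Relative to the WT, *OsBT* rose in OE15 by 0.21 in log2 terms (with a standard error of 0.032 and an adjusted p of 0.0046 from limma), or 15.8%, and the adjusted p stayed under 0.05 with each library left out in turn (0.0116 to 0.0439). In OE20 the log2 fold change was 0.02 (95% interval -0.051 to 0.10, adjusted p = 0.681 from limma). Between the lines, *OsBT* was higher in OE15, by 0.19 in log2 terms (with a standard error of 0.032 and an adjusted p of 0.0136 from limma). This difference between the lines was no longer under 0.05 without OE15 replicate 1 (adjusted p = 0.0686 from limma), OE15 replicate 2 (0.0999), OE20 replicate 1 (0.0903) or OE20 replicate 2 (0.0543), and its size stayed at 0.17 to 0.21. Without a trend its adjusted p was 0.0999.

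*OsDOF18* (LOC_Os08g38220, chromosome 8), a DOF zinc finger factor that promotes ammonium uptake in rice roots, was at 47.1 and 46.3 FPKM in OE15, 45.7 and 44.6 FPKM in OE20, and 41.8 and 45.3 FPKM in the WT. WT replicate 2 lay within the range of OE20. The log2 fold change was 0.10 in OE15 (95% interval -0.011 to 0.22, adjusted p = 0.181 from limma) and 0.05 in OE20 (95% interval -0.059 to 0.17, adjusted p = 0.525).

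Of the 3 regulators of growth, *OsTCP19* and *NGR5* were tested and passed in neither line, and *OsGRF4* was too low to test. *OsTCP19* (LOC_Os06g12230, chromosome 6), a TCP factor that limits the tillering response to nitrogen, was at 7.90 and 6.94 FPKM in OE15, 8.14 and 8.09 FPKM in OE20, and 7.59 and 7.65 FPKM in the WT. The OE15 libraries lay on either side of the WT, while both OE20 libraries were above it. Its log2 fold change was -0.04 in OE15 (95% interval -0.23 to 0.15, adjusted p = 0.756 from limma) and 0.09 in OE20 (95% interval -0.10 to 0.28, adjusted p = 0.533).

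*NGR5* (LOC_Os05g32270, chromosome 5) encodes an AP2-domain factor that promotes tillering in response to nitrogen by recruiting a chromatin repressor to branching inhibitor genes. It was at 8.61 and 9.35 FPKM in OE15, 11.1 and 10.2 FPKM in OE20, and 10.6 and 10.8 FPKM in the WT. OE15 was below all other libraries. The log2 fold change in OE15 was -0.25 (95% interval -0.43 to -0.079), which just missed the threshold (adjusted p = 0.0518 from limma), and it was -0.01 in OE20 (95% interval -0.18 to 0.17, adjusted p = 0.97). The difference of OE15 from OE20 was -0.25 and did not pass either (adjusted p = 0.078 from limma). The call in OE15 depended on the processing, since the adjusted p was 0.0393 under quantile normalization, 0.0385 under median-ratio scaling and 0.0415 with a minimum mean of 5 FPKM.

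*OsGRF4* (LOC_Os02g47280, chromosome 2), a growth-regulating factor that promotes nitrogen assimilation and carbon fixation and is best known from young, growing shoot tissues, was nearly absent from these roots. It was at 0.0466 and 0.0455 FPKM in OE15, listed at 0 in both OE20 libraries, and at 0.0237 and 0.0701 FPKM in the WT. After correction for relative depth, the values of OE15 were 2.01 and 2.0 times that of WT replicate 1, and WT replicate 2 was 4.01 times. Such steps are close to whole numbers, as a handful of fragments in a library would give. The gene was below the minimum for a test, and at this depth a difference between the genotypes was not detectable (adjusted p = 0.175 for OE20 and 1 for OE15 against the WT from limma when all loci above 0 were tested).

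Taking the 8 genes tested as a list, 2 of 8 (25%) passed in OE15, both upward, against 20.4% of all loci tested, with 10.5% of all loci passing upward and 9.89% downward. In OE20, 2 of 8 passed, both upward, against 11.9% of all loci, with 6.40% upward and 5.47% downward. None of the 8 was also above 1.5-fold, as 5.50% of all loci were in OE15 and 3.11% in OE20. This held in limma also at an unadjusted p under 0.05, which 4 of the 8 reached in OE15, against 34.5% of all loci, and 2 in OE20, against 27.4%. Between the lines, 1 of 8 passed, with *OsBT* higher in OE15, against 11.6% of all loci, with 5.45% of all loci higher and 6.12% lower in OE15. None of the 8 was above 1.5-fold there, as 2.06% of all loci were, and 2 had an unadjusted p under 0.05, as 27.6% did. The shares in OE15 and between the lines were close to those of all loci, and with 8 genes that of OE20 differs from the background by about a single gene.

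OE15 and the WT did not overlap for 7 of the 8 genes, with 6 higher and 1 lower in OE15, against 62.8% of all loci, with 34.7% higher and 28.1% lower. OE20 and the WT did not overlap for 5 of the 8, all higher in OE20, against 55.9%, with 31.0% higher and 25.0% lower. OE15 and OE20 did not overlap for 7 of the 8, with 3 higher and 4 lower in OE15, against 57.8%, with 29.7% higher and 28.1% lower. All 4 OE libraries were above both WT libraries for 4 of the 8 genes, *OsNLP1*, *OsNLP3*, *OsNLP4* and *OsNIGT1*, against 18.9% of all loci, and below them for none, against 14.8%, or 33.7% on either side. The lines share the WT libraries, so these sides are not independent of each other. Over the 8 genes, the median log2 fold change came to 0.12 for OE15 and 0.08 for OE20, beside 0.02 for all loci tested in each line. With the mean of both lines set against the WT, 4 of 8 passed, all upward, against 17.8% of all loci, or 9.44% upward. These were *OsNLP1* (0.16, adjusted p = 0.049 from limma), *OsNLP4* (0.20, 0.036), *OsNIGT1* (0.21, 0.0402) and *OsBT* (0.12, 0.0275). For *OsBT* the mean joins a log2 fold change of 0.21 in OE15 with 0.02 in OE20 (adjusted p = 0.681 from limma). Each of these 4 calls was lost when any single library was left out, where fewer of all loci passed as well.

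The changes were of a size common among the loci tested. For the regulators, the median absolute log2 fold change was 0.15 in OE15, beside 0.14 over all loci tested, and 0.08 in OE20, beside 0.11. For *NGR5*, the gene with the largest size in OE15, 26.7% of the loci tested had a larger one, and for *OsNIGT1*, the largest in OE20, 17.5% did. Every 95% interval of the 8 genes, in each line and between the lines, lay between -0.43 and 0.43 on the log2 scale, inside the 0.58 that stands for 1.5-fold. The intervals are for single genes and rest on 2 libraries a group, with a spread drawn in part from other loci.

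**Figure D3:**
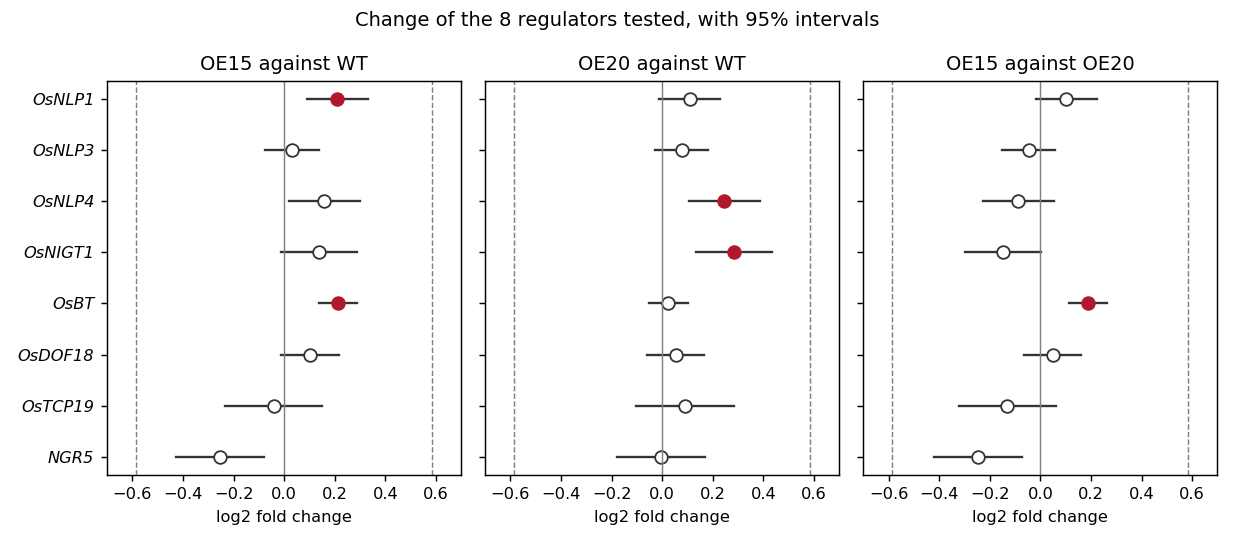
Log2 fold change of the 8 regulators tested, with 95% intervals from limma, for each OE line set against the WT and for OE15 set against OE20; filled points had an adjusted p under 0.05 and dashed lines mark 1.5-fold. Filled points are *OsNLP1* and *OsBT* in OE15, *OsNLP4* and *OsNIGT1* in OE20, and *OsBT* between the lines, and every interval lies inside the dashed lines.

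**Figure D4:**
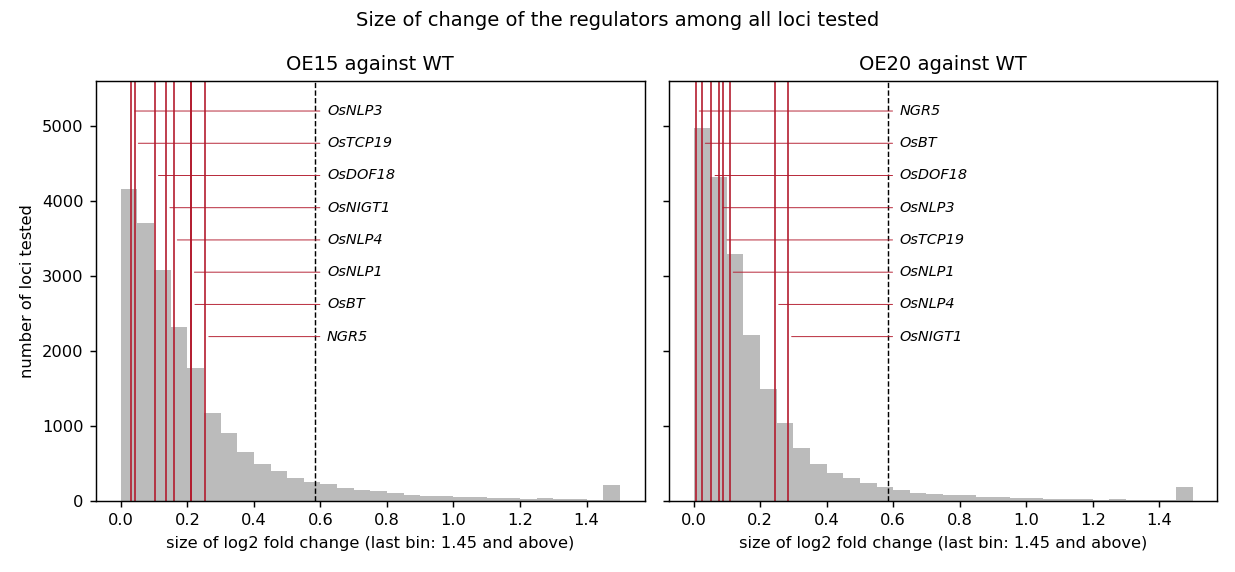
Histogram of the size of the log2 fold change of the 20627 loci tested in OE15 (left) and OE20 (right) against the WT, with red lines at the 8 regulators and a dashed line at 1.5-fold. The regulators lie in the body of the distribution, with *NGR5* the largest in OE15 at a size of 0.25 and *OsNIGT1* the largest in OE20 at 0.28.

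Replicates of most regulators lay close together. The residual SD of log2(FPKM + 0.1) was 0.025 for *OsBT*, 0.027 for *OsNLP4*, 0.037 for *OsNLP1* and *OsNLP3*, and 0.039 for *OsNIGT1*, each below the median of loci at a like level (0.036 to 0.076). *OsDOF18* was above it, at 0.05 beside 0.045. *OsTCP19* (0.075) and *NGR5* (0.071) had the widest spread among the 8, although both were below the median at their level (0.085 and 0.0746).

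Of 4 nitrate genes set beside the regulators, 3 had larger log2 fold changes than any regulator in both lines. Whether the regulators act on these nitrate genes was not tested. The nitrate genes were chosen by the study from measurements on these lines and are no independent evidence. Of the 4 genes, 3 passed in OE15 and the same 3 in OE20, all upward. *OsNAR2.1*, the partner protein of the high-affinity transporters, was at 125.9 and 123.0 FPKM in OE15, 126.9 and 125.1 FPKM in OE20, and 86.1 and 91.4 FPKM in the WT, with log2 fold changes of 0.49 and 0.51 (adjusted p = 0.00029 and 0.000454 from limma). *OsNRT2.1* and *OsNRT2.2*, high-affinity nitrate transporters at neighbouring loci whose shared reads cannot be told apart here, rose by 0.68 and 0.62 in OE15 (adjusted p = 0.00115 and 0.00079 from limma) and by 0.41 and 0.39 in OE20 (adjusted p = 0.0157 and 0.0107), all in log2 terms. *OsNRT2.1* was at 9.90 and 9.20 FPKM in OE15, 8.10 and 7.75 FPKM in OE20, and 5.81 and 6.07 FPKM in the WT. *OsNIR2*, a nitrite reductase, was at 881 and 866 FPKM in OE15, 821 and 858 FPKM in OE20, and 791 and 918 FPKM in the WT, with log2 fold changes of 0.04 in OE15 and -0.02 in OE20 (adjusted p = 0.74 and 0.869 from limma), and the OE libraries lay within the range of the WT. The sign of these values turned with single libraries left out. In OE20 the call of *OsNRT2.1* was lost without WT replicate 1 (adjusted p = 0.0771 from limma), WT replicate 2 (0.0507), OE20 replicate 1 (0.0927) or OE20 replicate 2 (0.0648). That of *OsNRT2.2* was lost without WT replicate 1 (0.0547), OE20 replicate 1 (0.066) or OE20 replicate 2 (0.0646).

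The regulators fell into different patterns over the 6 libraries. Correlations here are of log2(FPKM + 0.1) over 6 libraries that share their genotypes, and they are given as a description. *OsNLP4* was most like *OsNIGT1* (Pearson r = 0.90), both with their highest values in OE20. *OsNLP1* was most like *OsDOF18* (r = 0.91), and *OsBT* most like *OsNLP1* (r = 0.86), with their highest values in OE15. *NGR5* ran against *OsBT* (r = -0.90), being lowest where *OsBT* was highest.

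Of the 453 tested loci that the study names or annotates, most of them from its own lists of genes changed in these libraries, the locus most like *OsNLP1* was LOC_Os02g52990 (r = 0.997), annotated as the auxin-responsive gene *OsSAUR12*. It was at 22.7 and 19.7 FPKM in OE15, 15.1 and 14.8 FPKM in OE20, and 8.58 and 11.4 FPKM in the WT, and no other locus tested had a higher correlation with *OsNLP1*. The locus most like *OsBT* was LOC_Os06g14420, annotated as a hydrolase of the NUDIX family (r = 0.95), with 50.4 and 50.5 FPKM in OE15, 21.4 and 24.4 FPKM in OE20, and 11.8 and 14.5 FPKM in the WT. For *OsNLP4* it was LOC_Os01g22680, annotated as a fruit bromelain precursor (r = 0.98), and for *OsNIGT1* it was LOC_Os07g03040, an expressed protein (r = 0.96). Among all loci tested, 460 were more like *OsBT* than its match, 40 were more like *OsNLP4* and 89 more like *OsNIGT1*. These loci vary far more between the genotypes than the regulators they resemble, which follows in part from candidates taken mostly from lists of changed genes.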

How the data were processed

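According to the submitters' processing notes, the authors used FastQC 0.11.8 for quality, Trimmomatic 0.38 for trimming, HISAT2 2.1.0 for mapping and Cufflinks 2.2.1. They deposited FPKM, 1 value per locus and library, without pooling. The genome build, annotation, strand setting and treatment of multi-mapped reads are not given in the sources used here, so copies and overlapping genes may share reads. The names of the regulators came with the list. RefSeq lists 4 of the 9 on the chromosome of the locus name, namely *OsNLP1*, *OsNLP3*, *OsNIGT1* and *OsGRF4*. The names *OsNLP4*, *OsBT*, *OsDOF18*, *OsTCP19* and *NGR5* were not found there. No sequences or coordinates are printed.

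From the deposited FPKM, 4 duplicated locus names were left out. Loci whose mean reached 1 FPKM entered a single limma fit (version 3.58.1, R 4.3.3) of log2(FPKM + 0.1) with a trend, which held all 3 genotypes and left 3 residual degrees of freedom. Log2 fold changes on this scale understate the change of low genes. Every adjusted p is from limma, with Benjamini-Hochberg adjustment over all loci tested. A gene rose or fell where this p was under 0.05, and a 1.5-fold limit, as the study used, was counted beside it. The code was tested on simulated data. Exact permutation of 2 against 2 libraries cannot go below p = 0.333. Nothing says that the libraries come from separate cultures, so p-values rest on the spread between these libraries. For each gene, limma draws this spread toward that of loci at a like level, or of all loci without a trend. Standard errors and intervals use the same spread. FPKM holds no read totals, and no counting interval is given.

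The members and lists were chosen with earlier results of these data known. Named are all 9 regulators, *OsMYB305*, the 4 nitrate genes in the primer list of the study, and for each regulator that passed, the most like annotated locus and the most like regulator. The correlation of *NGR5* with *OsBT* was named after its value was seen. The alternatives tried were other pseudocounts (1 and 0.01), another minimum (none and 5 FPKM), median-ratio scaling, quantile normalization, a replicate block, separate fits, no trend, an adjusted p under 0.01, the 4 OE libraries as a single group, and each library left out in turn.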

Additional observations from a re-analysis of the deposited data

Results flagged for a closer look

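The level of *OsBT* differed between the 2 lines by the direct test. OE15 exceeded OE20 in *OsBT* by 0.19 on the log2 scale (adjusted p = 0.0136 from limma), with both OE15 libraries above both OE20 libraries, but this call was lost without any single library of either line (adjusted p = 0.0543 to 0.0999 from limma). The transgene itself differed in the same direction, since OE15 exceeded OE20 in *OsMYB305* by 0.89 (adjusted p = 0.000886 from limma). With 2 lines, a link of *OsBT* to the level of *OsMYB305* cannot be told apart from any other difference between the lines.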

How the results depend on the processing

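In OE15, where 2 regulators passed, 1 passed without a trend and at an adjusted p under 0.01, and 0 with the limit of 1.5-fold. Over all 20627 loci, 4217 passed in OE15 in the main fit, 2939 without a trend and 1134 with the 1.5-fold limit. Under quantile normalization, median-ratio scaling and a minimum mean of 5 FPKM, 3 passed in OE15, the added gene being *NGR5*, which was lower. Over all loci, 4290 passed under quantile normalization, 4239 under median-ratio scaling, and 3832 of 14313 with the minimum of 5 FPKM. In OE20, where 2 passed, 1 passed under quantile normalization, median-ratio scaling and the replicate block. With no minimum, with separate fits, without a trend, with the 1.5-fold limit and at an adjusted p under 0.01, 0 passed. Over all 20627 loci, 2449 passed in OE20 in the main fit. There were 2461 under quantile normalization, 2446 under median-ratio scaling and 2145 with the replicate block. The count was 1832 with separate fits, 1197 without a trend and 641 with the 1.5-fold limit. With no minimum it was 1486 of 33842 loci. Between the lines, where 1 passed, 0 passed without a trend, with the 1.5-fold limit and at an adjusted p under 0.01. Over all loci, 2387 passed there in the main fit, 847 without a trend and 425 with the 1.5-fold limit. Passes at an adjusted p under 0.01 were not counted over all loci. Several calls were lost with libraries left out in turn, as given for each gene. Such a fit leaves a genotype with a single library, and fewer of all loci passed as well. In OE15, the log2 fold change of *OsBT* then stayed at 0.19 to 0.23 and that of *OsNLP1* at 0.17 to 0.25. In OE20, *OsNLP4* stayed at 0.23 to 0.26 and *OsNIGT1* at 0.25 to 0.31. The cause of the changed calls was not tested.

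The regulators kept the sign of their log2 fold changes under these alternatives, except for values near 0. *NGR5* in OE20 turned to 0.0035 without WT replicate 2 and 0.057 without OE20 replicate 2, *OsTCP19* in OE15 to 0.050 without OE15 replicate 2 (-0.13 without replicate 1), and *OsDOF18* in OE20 to -0.0039 without WT replicate 1 (0.11 without replicate 2). The mean of both lines turned for *OsTCP19* to -0.022 without OE15 replicate 1 (0.070 without replicate 2). *OsNIR2* in OE15 ranged from -0.071 without WT replicate 1 to 0.14 without WT replicate 2, and in OE20 it was 0.027 under quantile normalization and ranged from -0.13 without WT replicate 1 to 0.085 without WT replicate 2, with 0.0099 without OE20 replicate 1. With the 4 OE libraries as a single group against the WT, no regulator passed, and the lowest adjusted p from limma was 0.107 (*OsNLP4*).

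Libraries with the same replicate number in their titles showed no strong shared deviation. This cannot tell whether they were grown or prepared together. The deviations of same-numbered libraries correlated at -0.069, 0.023 and 0.031 across loci between the 3 pairs of genotypes. With the replicate number as a block, *OsNLP4* in OE20 had an adjusted p of 0.058 from limma and the means of both lines lost their calls for *OsNLP1* (0.0742), *OsNLP4* (0.0512) and *OsNIGT1* (0.0524). No other regulator's call changed.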
